A study of Homo sapiens with 12 samples.

Results

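Interferon response genes are the transcripts that cells make when interferon, or the sensing of foreign nucleic acid, is signalled to the nucleus. The set described here holds 41 such genes, listed by symbol, and all 41 matched 1 Ensembl ID each among the 20286 gene IDs of the table. They were followed in HK-2 cells, a human proximal tubule epithelial line immortalised with papillomavirus genes. The cells are 1 line and not tubule tissue, and wild-type here means only that the sample titles name no further genetic change. Cells in DMEM with fetal bovine serum were given 1 of the recombinant proteins S100A8, S100A9 and S100A8/S100A9 for 48 h. The labels print the dose of each as 5 mg/mL, and control cells received the matching amount of PBS. The unit of that dose could not be checked. Each of the 4 groups held 3 libraries of poly(A) RNA, and the labels do not say that they came from separate cultures. A p-value therefore speaks of the spread among these libraries alone, and that spread may be technical. The main comparison is S100A9 against S100A8.

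Type I interferons bind a receptor made of IFNAR1 and IFNAR2, whose kinases JAK1 and TYK2 switch on ISGF3, a complex that includes STAT2 and IRF9 and binds the interferon-stimulated response element in promoters. The genes switched on in this way include RNA sensors, enzymes that destroy or block RNA, the ubiquitin-like modifier ISG15, antiviral GTPases and the transcription factors themselves. The S100A8 and S100A9 proteins bind calcium, are abundant in neutrophils and monocytes, and are known ligands of TLR4 and RAGE.

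Promoters show what the genes share that the symbols do not. RefSeq promoters (GRCh38.p14, 250 bases before to 50 bases after the start) were found for 34 of the 41 genes. The 7 others were IFIT2, IRF7, MX2, OAS2, OASL, TRIM22 and USP18. A gene with several promoter entries was represented by the first listed. For GBP1 and PARP9 the start used was not found near the start of a GENCODE 29 transcript, and GBP1 is among the matches counted below. The core of the interferon-stimulated response element was searched on both strands as GAAA, any 2 bases and again GAAA. It occurred in 21 of the 34 promoters (61.8%), against 3.65% of 27305 RefSeq promoters of the same length. The gamma-activated site, searched as TTCNNNGAA, occurred in 8 of 34 (23.5%, against 7.88% of all), and the kappa B-like motif, GGGA, any 4 bases and CC, in 10 of 34 (29.4%, against 25.1% of all). A match to one motif can overlap a match to another. The 250 bases before the start are shown for DDX60L, the gene that passed the test below, and for its paralog DDX60, with matches to the response element core in capitals. Both genes lie on the minus strand of chromosome 4, DDX60L at chr4:168480493-168480742 and DDX60 at chr4:168318753-168319002 for the bases shown. DDX60L extends to 168537786 in GENCODE 29, so the start used for it lies inside the annotated gene, although a transcript begins near it.

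DDX60L: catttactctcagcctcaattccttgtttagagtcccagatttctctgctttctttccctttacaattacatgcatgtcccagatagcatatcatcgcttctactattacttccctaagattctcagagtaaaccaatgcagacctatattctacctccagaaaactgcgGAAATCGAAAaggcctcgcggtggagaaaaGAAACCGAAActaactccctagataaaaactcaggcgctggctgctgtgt
DDX60: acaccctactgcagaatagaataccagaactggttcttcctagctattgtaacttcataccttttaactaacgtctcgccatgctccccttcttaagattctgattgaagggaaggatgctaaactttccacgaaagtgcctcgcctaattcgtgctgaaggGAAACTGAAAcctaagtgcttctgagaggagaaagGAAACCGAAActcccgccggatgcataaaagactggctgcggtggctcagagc

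Each of the pair carried 2 matches in the sense orientation. In DDX60L they lay at -80 to -71 and -50 to -41 from the start, and in DDX60 at -88 to -79 and -53 to -44. The match nearer the start, GAAACCGAAA, is the same in both, and it also occurred in ISG15 and MX1 and, on the opposite strand, in IFIT1, IFIT5 and IFI27. The other 3 genes that come up below carried the core as well: IFI44L at 2 places as GAAAAAGAAA, IFI6 at 3 places, and IFIT1 at 2 places on the opposite strand. A match is a description of these bases and shows no binding.

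HK-2 cells expressed most of the set without added interferon. By deposited FPKM, which scales reads to gene length and library total and so allows levels to be compared between genes, 37 of the 41 had a mean of at least 1 over the 12 libraries and 17 a mean of at least 10. The highest was BST2, the membrane tether known as tetherin, at 50.8 FPKM (47.4 to 56.2 over libraries). It was followed by the RNA-activated kinase gene EIF2AK2 at 39.6 (34.8 to 43.6), IFIT3 at 38.1 (35.9 to 42.7) and ISG15 at 35.0 (32.8 to 39.6). BST2 lay above the others in every library, whereas the ranges of EIF2AK2, IFIT3 and ISG15 overlapped. At the other end were IFI27 at 0.468, OAS2 at 0.20, MX2 at 0.0708 and XAF1, which had 1 count in the 12 libraries together. The range within a role was wide: among oligoadenylate synthetases, OAS3 stood at 18.0 FPKM and OAS2 at 0.20, and among dynamin-like GTPases MX1 at 1.44 and MX2 at 0.0708.

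**Figure D1:**
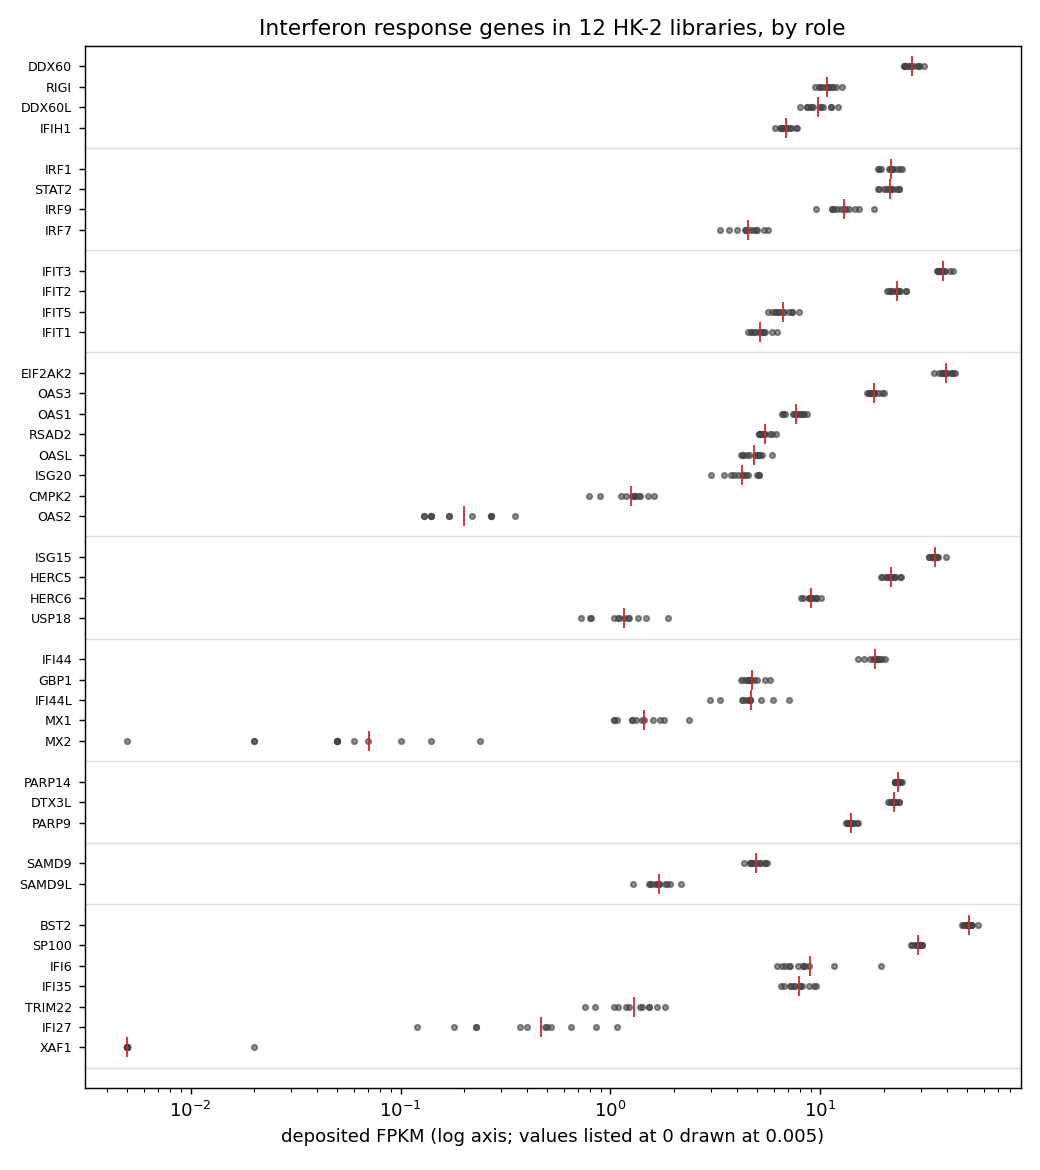
Deposited FPKM of the 41 interferon response genes (log axis), grouped by role; points are the 12 libraries, red ticks are means, and values listed at 0 are drawn at 0.005. BST2 lies highest at a mean of 50.8, and OAS2, MX2, IFI27 and XAF1 lie below 1.

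The upstream pathway was read from 35 further genes. None of 8 interferon genes passed the filter on low counts: IFNL1, IFNG and IFNA1 had 0 counts in all 12 libraries, and IFNB1 had 5 counts in total. A count of 0 allows up to 0.188 CPM (counts scaled to the library total) in the smallest library, counting error only. All 6 receptor genes were measured, among them IFNAR1 at 35.7 FPKM and the lambda receptor gene IFNLR1 at 3.85. STAT2 and IRF9, members of the set that belong to ISGF3, stood at 21.4 and 13.0 FPKM. Of the 26 pathway genes tested, 0 passed edgeR's test in S100A9 against S100A8, with 1 higher and 0 lower at an unadjusted p under 0.05, where 3.72% of all genes were higher and 3.28% lower. That gene was JAK1, with 375, 401 and 374 CPM after S100A9 and 340, 361 and 355 after S100A8, a log2 difference of 0.12 (SE 0.04, adjusted p = 0.38 in edgeR). The S100A9 libraries lay above all S100A8 libraries.

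Libraries held 15882193 to 20748334 counts and 15468 to 15642 genes above 0. Of 10 epithelial and proximal tubule markers, 6 were well expressed: KRT8, KRT18, PAX8, EPCAM and CDH2 at 287, 168, 122, 77.9 and 42.8 FPKM, and the brush border gene GGT1 at 29.2. The other 4 proximal tubule genes were near 0, with LRP2 at 0.0100, CUBN at 0.0483, SLC34A1 at 0.0558 and ANPEP at 0.0600 FPKM. GGT1 lay higher in all S100A9 than in all S100A8 libraries (log2 difference 0.23, adjusted p = 0.47 in edgeR), and its part in the results was not tested. Of the plasmacytoid dendritic cell markers, CLEC4C had 0 counts over all libraries, LILRA4 5 and IL3RA 10. Endothelial markers were low, with PECAM1 at 0.0808, VWF at 0.179 and CDH5 at 0.0183 FPKM. The fibroblast marker LUM stood at 33.0 FPKM, whereas PDGFRB stood at 0.37, DCN at 0.0125 and COL1A2 had 0 counts. Of 7 myeloid markers, TYROBP had 0 counts and PTPRC 4, CD14, ITGAM and LYZ stood at 0.238, 0.0833 and 0.0725 FPKM and CSF1R at 0.951, while the lysosomal gene CD68 stood at 63.7. In bulk RNA, fewer cells with a transcript and less of it per cell cannot be told apart.

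S100A9 and S100A8 gave nearly the same levels for most of the set. Of 41 genes 38 passed the filter on low counts, which left out MX2, IFI27 and XAF1. In S100A9 against S100A8, 1 of the 38 was lower and 0 were higher in edgeR, at a Benjamini-Hochberg adjusted p under 0.05 over 13512 genes. Of all genes tested, 0.0148% were called lower, 0.17% higher and 0.185% in either direction. Those called lower were 2 genes, and 1 of them was the member of the set. The set was chosen with earlier results of these data known, so these shares give no independent measure of it. At an unadjusted p under 0.05, 4 of the 38 were lower and 0 higher, against 3.28% and 3.72% of all genes. The median log2 difference over the 38 was -0.054, with a range from -0.81 to 0.11, against a median of 0 over all genes. In 32 of the 38 the difference lay below 0, as it did in 49.8% of all genes. The 38 were read in the same libraries, so they are not independent observations. All 3 S100A9 libraries lay below all 3 S100A8 libraries in 5 genes (DDX60L, IFI44L, IFIT1, IFI6 and PARP14), where 6.09% of all genes did so, and above them in 0, where 6.41% did. The 95% interval of the difference, taken gene by gene, lay within a 2-fold change either way in 36 of the 38, the exceptions being IFI6 and OAS2, and within 1.41-fold in 32.

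**Figure D2:**
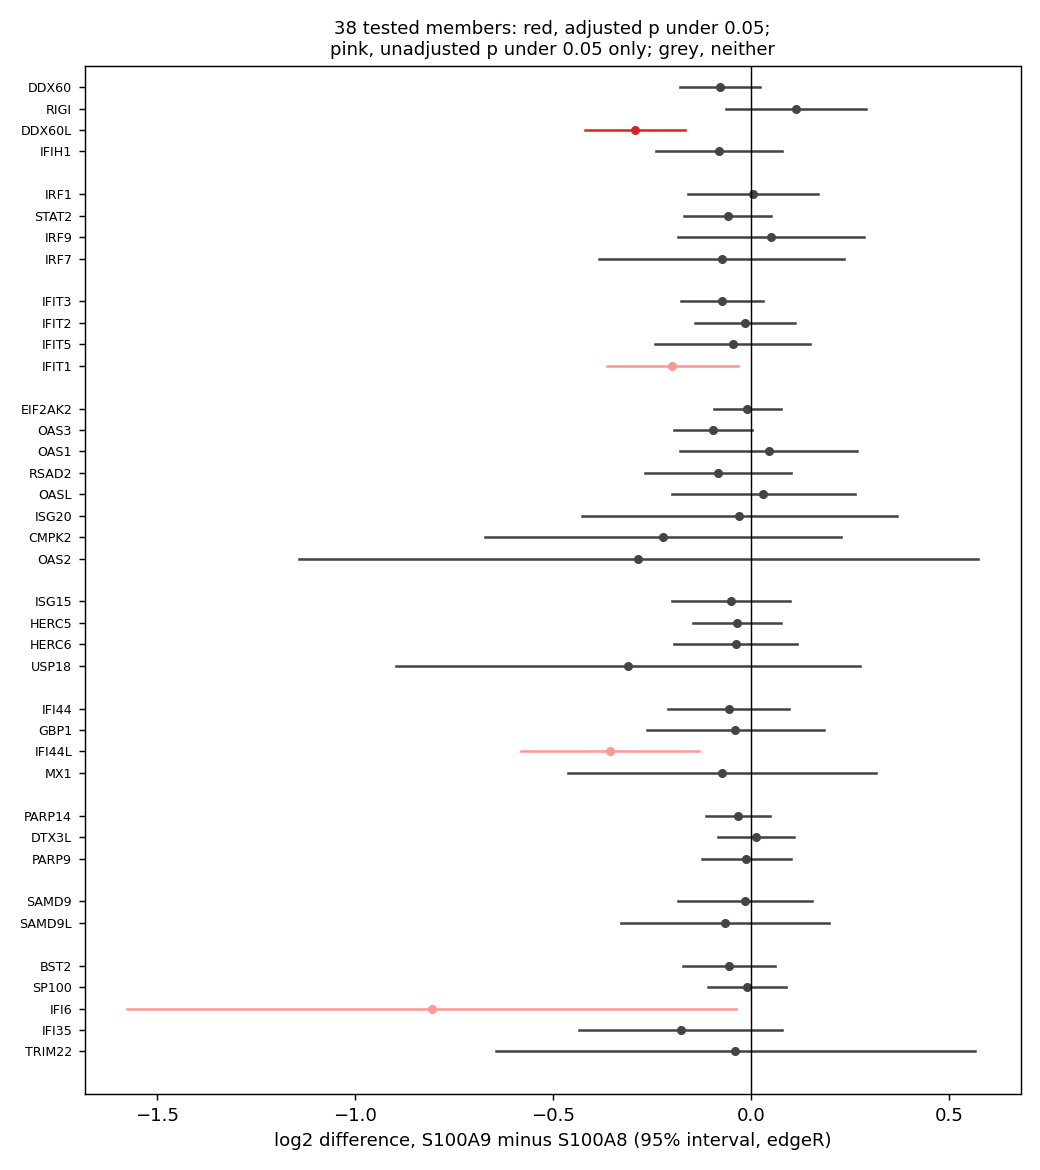
Log2 difference, S100A9 minus S100A8, with 95% intervals from edgeR for the 38 tested genes, grouped by role. DDX60L (red, -0.29) passed the threshold on adjusted p, IFI44L, IFIT1 and IFI6 (pink) had an unadjusted p under 0.05 only, and the widest intervals belong to IFI6 and OAS2.

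RNA sensors and helicases held the gene that passed. RIGI and IFIH1 encode cytosolic sensors of double-stranded RNA, and DDX60 and DDX60L encode a pair of related helicases. DDX60L (ENSG00000181381, chromosome 4 from 168356735 to 168537786 in GENCODE 29 on GRCh38) had 36.9, 40.6 and 37.2 CPM in the S100A9 libraries and 48.1, 48.9 and 43.8 in the S100A8 libraries. Control libraries held 42.9, 46.9 and 44.8, and S100A8/S100A9 libraries 42.3, 45.2 and 44.4. In CPM each S100A9 library was thus below each of the other 9, while the other 3 groups overlapped. The deposited FPKM did not separate the groups: it was 8.64, 7.99 and 11.2 after S100A9, 9.06, 11.2 and 12.1 after S100A8, 10.1, 9.22 and 9.05 in control and 8.64, 9.91 and 10.3 after S100A8/S100A9. From the counts, the log2 difference between S100A9 and S100A8 was -0.29 (SE 0.06, 95% interval -0.42 to -0.17, adjusted p = 0.038 in edgeR), a mean of 38.2 ± 2.06 against 46.9 ± 2.74 CPM (SD, n = 3).

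Against control, DDX60L differed by -0.23 after S100A9 (95% interval -0.36 to -0.10, adjusted p = 0.22 in edgeR), by 0.06 after S100A8 (-0.06 to 0.19) and by -0.03 after S100A8/S100A9 (-0.16 to 0.10). S100A8/S100A9 against S100A9 gave 0.20 (0.07 to 0.33, adjusted p = 0.40). These comparisons share libraries, and none of the 4 passed the threshold.

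The call on DDX60L did not hold in every fit, although the log2 difference moved little, from -0.34 to -0.26 with any 1 library left out. It ended without S100A8 replicate 1 (adjusted p = 0.13 in edgeR), S100A8 replicate 2 (adjusted p = 0.34), S100A9 replicate 1 (adjusted p = 0.22), S100A9 replicate 3 (adjusted p = 0.30) or S100A8/S100A9 replicate 3 (adjusted p = 0.057). It also ended on the 6 libraries compared alone (log2 difference -0.29, adjusted p = 0.07 in edgeR), without the robust option (-0.29, adjusted p = 0.06) and with limma on log2(FPKM + 1), where the difference was -0.20 (adjusted p = 0.82). The call thus ended in 8 fits and held in 11. Those 11 include the Wald test of DESeq2 (-0.29, adjusted p = 0.026) and edgeR without the filter on low counts (-0.29, adjusted p = 0.016).

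DDX60 itself had 153, 140 and 150 CPM after S100A9 and 148, 156 and 164 after S100A8, with 149, 150 and 144 in control and 139, 143 and 156 after S100A8/S100A9, and all 4 groups overlapped. Its log2 difference was -0.08 (95% interval -0.18 to 0.02). The transcripts of the pair share few stretches of 31 bases: 84, which is 1.24% of those of DDX60 and 0.684% of those of DDX60L. When the counts of both were summed, S100A9 stood at 186 ± 5.10 and S100A8 at 203 ± 6.23 CPM (SD, n = 3). The log2 difference of the sum was -0.125 (95% interval -0.213 to -0.038, adjusted p = 0.44 in edgeR), which did not pass. DDX60 supplied most of this sum, so the sum cannot tell whether the call on DDX60L holds. The sensors differed in direction without passing: RIGI by 0.11 (-0.06 to 0.29) and IFIH1 by -0.08 (-0.24 to 0.08).

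**Figure D3:**
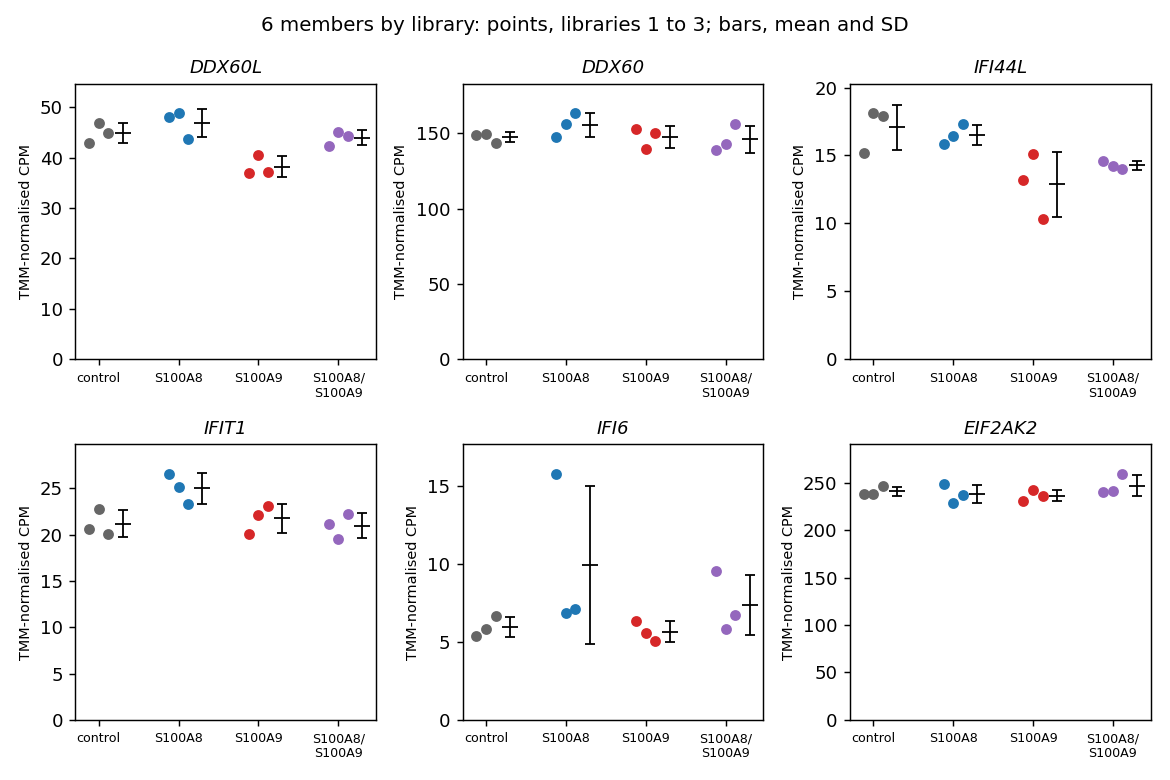
TMM-normalised CPM of 6 genes by library; coloured points are libraries 1 to 3 of each group, and black bars are mean and SD. DDX60L is lower in the 3 S100A9 libraries than in the other 9, IFI6 is high in 1 S100A8 library at 15.8 CPM, and EIF2AK2 overlaps in every group.

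Among the GTPases and the IFI44 pair, IFI44L differed most. IFI44L encodes a GTPase-like protein that lies beside its paralog IFI44 on chromosome 1. It had 13.2, 15.1 and 10.3 CPM after S100A9, 15.8, 16.4 and 17.3 after S100A8, 15.2, 18.1 and 17.9 in control and 14.6, 14.2 and 14.0 after S100A8/S100A9. The S100A9 libraries were below all S100A8 and all control libraries, and S100A8/S100A9 libraries were below all controls as well. The log2 difference from S100A8 was -0.36 (SE 0.11, 95% interval -0.58 to -0.13, adjusted p = 0.37 in edgeR). Against control it was -0.40 after S100A9 (95% interval -0.63 to -0.18, adjusted p = 0.22), -0.05 after S100A8 (-0.27 to 0.17) and -0.26 after S100A8/S100A9 (-0.48 to -0.04). None passed, although S100A9 against control did without S100A9 replicate 2 (-0.538, adjusted p = 0.048 in edgeR), while without S100A9 replicate 3 the difference was -0.265 (adjusted p = 0.88).

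For IFI44L the deposited FPKM did not order the libraries as the counts did. Its FPKM values were 4.42, 5.97 and 3.31 after S100A9 and 2.97, 7.12 and 4.26 after S100A8, which overlap, and limma on log2(FPKM + 1) gave a difference of -0.02. The transcript length implied by count, FPKM and library total ran from 2312 to 5339 bases for IFI44L across the 12 libraries, and from 3324 to 5324 for DDX60L. For IFIT1, ISG15 and BST2 it was nearly constant, at 4300 to 4309, 637 to 638 and 1001 to 1001 bases. The part of this in the differences of IFI44L and DDX60L was not tested. IFI44 had 27.0, 30.3 and 30.9 CPM after S100A9, 29.6, 32.3 and 29.8 after S100A8, 28.0, 30.8 and 30.2 in control and 25.4, 29.02 and 29.8 after S100A8/S100A9. All 4 groups overlapped, and S100A9 differed from S100A8 by -0.06 (-0.21 to 0.10). GBP1 and MX1 differed by -0.04 and -0.07, with intervals of -0.26 to 0.18 and -0.46 to 0.32.

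IFIT proteins bind foreign RNA and block its translation. IFIT1 had 20.1, 22.1 and 23.1 CPM after S100A9 and 26.6, 25.2 and 23.3 after S100A8, with 20.66, 22.8 and 20.1 in control and 21.2, 19.5 and 22.2 after S100A8/S100A9. Here the S100A8 libraries were the ones that lay apart, above the other 9. The log2 difference of S100A9 from S100A8 was -0.20 (95% interval -0.37 to -0.03, adjusted p = 0.60 in edgeR), and that of S100A8 from control 0.24 (0.07 to 0.41, adjusted p = 1). Neither passed. IFIT3 had 88.9, 102 and 99.6 CPM after S100A8 and 86.0, 90.3 and 86.8 in control, a difference of 0.14 (0.04 to 0.25, adjusted p = 1) with overlapping libraries. After S100A9 it had 87.7, 93.8 and 94.6 CPM, which differed by -0.07 from S100A8 and by 0.07 from control, and after S100A8/S100A9 91.3, 89.8 and 87.9. IFIT2 and IFIT5 differed between S100A9 and S100A8 by -0.02 and -0.05.

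The transcription factors did not pass the test in any comparison. IRF1, which also answers to interferon gamma and NF-kB, had 30.5, 32.7 and 32.1 CPM after S100A9 and 28.3, 35.8 and 30.9 after S100A8. It had 32.7, 35.7 and 32.0 in control and 30.7, 34.6 and 28.9 after S100A8/S100A9, so all groups overlapped. S100A9 differed from S100A8 by 0.01 on the log2 scale (95% interval -0.16 to 0.17). STAT2 differed by -0.06 (-0.17 to 0.05), IRF7 by -0.08 (-0.38 to 0.23) and IRF9 by 0.05 (-0.18 to 0.29). Exons of IRF9 and IRF1 overlap those of other genes in GENCODE 29, over 1838 bases on the same strand and 580 bases on the opposite one, so their reads are less certain. The same caution holds for SP100 and IFIT2, with 544 and 356 bases on the same strand. It also holds for genes with overlap on the opposite strand, among them EIF2AK2 (401 bases). STAT2 was lowest after S100A8/S100A9, at 77.3, 85.6 and 77.6 CPM, below all S100A8 libraries (91.7, 92.3 and 87.7), a difference of -0.18 (-0.29 to -0.07, adjusted p = 0.98 in edgeR).

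Enzymes that act on RNA or nucleotides ranged from 0.20 FPKM for OAS2 to 39.6 for EIF2AK2. EIF2AK2, the kinase PKR that halts translation, had 231, 242 and 237 CPM after S100A9 and 249, 229 and 237 after S100A8. It had 239, 238 and 247 in control and 241, 242 and 260 after S100A8/S100A9, again with overlap. S100A9 differed from S100A8 by -0.01 on the log2 scale (95% interval -0.09 to 0.07). OAS3 differed by -0.10 (-0.195 to 0.0019), OAS1 by 0.04 and RSAD2, which encodes viperin, by -0.08. CMPK2, a nucleotide kinase, and OAS2 were low, and their intervals were wide, at -0.67 to 0.23 and -1.14 to 0.57. Of the 8 genes in this role 6 lay below 0 and 2 above, and 0 passed.

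In the ISG15 system, ISG15 had 21.8, 23.3 and 22.8 CPM after S100A9 and 22.3, 22.8 and 25.2 after S100A8, which overlap (log2 difference -0.05, 95% interval -0.20 to 0.10). Control libraries had 20.8, 20.9 and 21.6 and S100A8/S100A9 libraries 22.1, 22.2 and 21.8, so in CPM every treated library lay above every control library, by narrow margins. In deposited FPKM this did not hold, as control replicate 3 (34.08) lay above S100A9 replicate 1 (34.04) and S100A8/S100A9 replicate 3 (34.07). Against control, S100A8 gave a log2 difference of 0.15 (95% interval -0.0014 to 0.302), S100A9 one of 0.10 (-0.05 to 0.25), and the combined protein one of 0.06 (-0.09 to 0.21). The 3 comparisons share the control libraries, and none passed. The ligase gene HERC5 and its relative HERC6 differed by -0.04 each. USP18, the protease that removes ISG15, was low at 1.16 FPKM and differed by -0.31 (-0.90 to 0.27).

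PARP9 and DTX3L encode proteins that form a complex, and PARP14 encodes a related enzyme. PARP14 had 177, 177 and 176 CPM after S100A9 and 180, 178 and 184 after S100A8, with 181, 175 and 183 in control and 188, 176 and 187 after S100A8/S100A9. The S100A9 and S100A8 libraries did not overlap although the log2 difference was only -0.03 (95% interval -0.11 to 0.05). Its spread within groups, 0.032 on the log2 scale, was the smallest of the 38, against a median of 0.113 over the 38 and 0.092 over all genes. DTX3L and PARP9, which share 217 exonic bases on opposite strands, differed by 0.01 and -0.01. SAMD9, which encodes a cytosolic antiviral protein, had 35.5, 32.8 and 28.8 CPM after S100A9 and 37.0, 29.9 and 31.3 after S100A8, with 33.3, 31.2 and 34.8 in control and 32.7, 33.6 and 36.6 after S100A8/S100A9. These overlapped, and S100A9 differed from S100A8 by -0.02 (-0.19 to 0.15). SAMD9L differed by -0.07.

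Among membrane, mitochondrial and nuclear effectors, IFI6, a small hydrophobic membrane protein, had the largest difference of the 38. It had 6.38, 5.56 and 5.05 CPM after S100A9 and 15.8, 6.86 and 7.14 after S100A8, with 5.37, 5.83 and 6.68 in control and 9.56, 5.81 and 6.76 after S100A8/S100A9. A single library, S100A8 replicate 1, stood far above the other S100A8 libraries. The log2 difference of S100A9 from S100A8 was -0.81 (95% interval -1.58 to -0.04, adjusted p = 0.70 in edgeR), and without that library it was -0.31 (adjusted p = 0.66). BST2 had 50.3, 48.3 and 47.5 CPM after S100A9 and 49.7, 49.3 and 52.7 after S100A8, a difference of -0.06 (-0.17 to 0.06). It had 52.0, 48.8 and 52.1 in control and 56.7, 51.1 and 52.3 after S100A8/S100A9, the last above all S100A9 libraries by a log2 difference of 0.13 (0.02 to 0.25, adjusted p = 0.63 in edgeR). IFI35, TRIM22 and the nuclear body gene SP100 differed by -0.18, -0.04 and -0.01, and their intervals included 0.

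Against control and between the other arms, 0 of the 38 genes passed edgeR's test, and DESeq2 and limma called 0 there as well. The share of all genes called was 0.0074% in S100A8 against control, 0.148% in S100A9 against control (0.141% higher), 0% in S100A8/S100A9 against control and 0% in S100A8/S100A9 against S100A8. In S100A8/S100A9 against S100A9 it was 0.252%, with 0.0296% higher and 0.222% lower.

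In S100A8 against control, IFIT1 and IFIT3 were the 2 genes higher at an unadjusted p under 0.05 and 0 were lower, against 1.74% and 1.79% of all genes. In this comparison 3 genes lay wholly above control (IFIT1, IFI6 and ISG15) and 0 wholly below, against 4.41% and 4.13% of all genes. All such counts are in CPM. In S100A9 against control, IFI44L and DDX60L were the 2 lower and 0 were higher, against 2.63% and 3.23% of all genes. Wholly below control lay 3 (DDX60L, IFI44L and the sensor gene IFIH1) and wholly above it 1 (ISG15), against 5.77% and 6.25%. In S100A8/S100A9 against control, STAT2 and IFI44L were the 2 lower and 0 were higher, against 2.95% and 2.65%. Wholly below lay 2 (IFI44L and IFIH1) and wholly above 2 (ISG15 and GBP1), against 5.4% and 5.3%.

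In S100A8/S100A9 against S100A9, DDX60L and BST2 were the 2 higher and STAT2 the 1 lower at an unadjusted p under 0.05, against 3.28% and 3.87% of all genes. The same pair, DDX60L and BST2, were the 2 wholly above and 0 lay wholly below, against 5.94% and 6.53%. In S100A8/S100A9 against S100A8, IRF9 was the 1 higher and STAT2, IFIT1 and IFIT3 were the 3 lower, against 2.12% and 2.3%. Wholly below lay 5 (IFI44L, IFIT1, ISG15, OAS2 and STAT2) and wholly above 0, against 4.55% and 4.45%. The median log2 difference from control over the 38 was 0.008 after S100A8, -0.039 after S100A9 and -0.008 after S100A8/S100A9. It lay below 0 in 18, 26 and 20 of the 38, against 49.8%, 50.1% and 50.3% of all genes. Against S100A9 and against S100A8, S100A8/S100A9 was below 0 in 17 and 27 of the 38, against 50.6% and 50.7% of all genes. The comparisons share libraries, so their counts are not independent of each other.

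Seen library by library, the set did not split the groups. For each library the median over the 38 genes of log2 CPM minus the gene's own mean was taken. It was -0.058, 0.026 and -0.024 in the S100A9 libraries, 0.007, -0.008 and 0.059 in the S100A8 libraries, -0.013, 0.031 and 0.000 in control and -0.008, -0.009 and -0.022 after S100A8/S100A9. The S100A9 and S100A8 libraries overlapped. In S100A9 replicate 1, 29 of the 38 genes were below their own mean, in S100A9 replicate 3 23 and in S100A9 replicate 2 13, while in S100A8 replicate 3 only 8 were. Without S100A9 replicate 2 the median difference between S100A9 and S100A8 was -0.077, and without S100A8 replicate 3 it was -0.037.

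**Figure D4:**
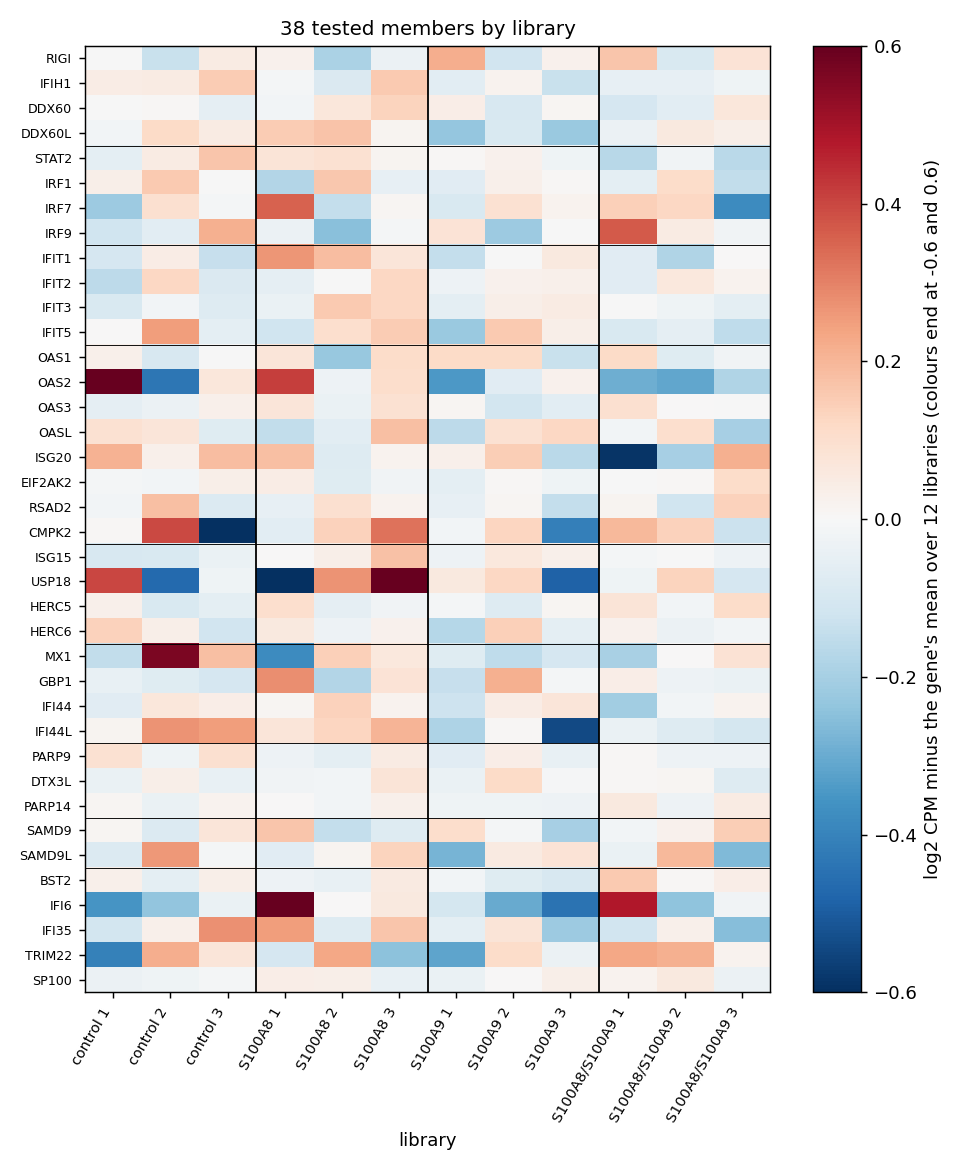
Log2 CPM minus each gene's mean over 12 libraries for the 38 tested genes (rows, by role) in the 12 libraries (columns, by group); colours end at -0.6 and 0.6. DDX60L is blue in the 3 S100A9 libraries, and the strongest colours include those of the low genes OAS2, CMPK2 and USP18 and of IFI6 in S100A8 replicate 1.

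The genes with a response element core in the promoter were set beside those without. In S100A9 against S100A8 the 20 tested genes with a match had a median log2 difference of -0.057, with 19 below 0. The 12 without a match had one of -0.026, with 8 below 0, and 49.8% of all genes lay below 0. In S100A8 against control the medians were 0.038 and -0.004, and in S100A8/S100A9 against control 0.013 and -0.021. In S100A9 against control they were -0.031 for the genes with a match (13 of 20 below 0) and -0.058 for those without (9 of 12). There 50.1% of all genes lay below 0. S100A8/S100A9 gave medians of 0.036 and 0.008 against S100A9, and of -0.086 and -0.012 against S100A8. The genes with a match include DDX60L, IFI44L, IFIT1 and IFI6, the 4 lower at an unadjusted p under 0.05 in S100A9 against S100A8. All genes were read in the same libraries, so the genes counted below 0 are not independent observations. These are descriptions of the genes named, and the difference between both kinds was not tested.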

How the data were processed

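The authors deposited 1 table with an expected count (an estimated read number that need not be whole) and an FPKM value per gene and library, per the file headers. Of the count entries 12.0% were not whole. No source used here names the aligner, the counter or the annotation. GRCm38 and mm10, which are mouse builds, appear in the submitters' processing notes although the IDs are human, so the build behind the counts is not known. Gene coordinates come from GENCODE 29 (GRCh38).

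Counts were rounded, filtered with filterByExpr (minimum count 10), scaled by TMM and fitted in edgeR 4.0.16 (R 4.3.3) with a robust quasi-likelihood model of all 12 libraries with 1 coefficient per group (8 residual degrees of freedom). The two-sided p-values were adjusted by Benjamini-Hochberg over 13512 genes, with a threshold of 0.05. SE and 95% intervals follow from the quasi-likelihood statistic. Levels are TMM-normalised CPM. Deviations by library used log2 CPM with a prior count of 2. DESeq2 1.42.0 and limma 3.58.1 on log2(FPKM + 1) were alternatives. The procedure was also run on simulated counts with the same spread setting for every gene. That run cannot speak for genes whose spread differs, and no result here rests on it. Reads carried no reported molecular identifiers, so the floor of 3 counts covers counting error only.

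The genes and lists were chosen with earlier results of these data known. Values in every library were given for genes past the threshold in any comparison, those with an unadjusted p under 0.05 in S100A9 against S100A8, and the gene of highest mean FPKM in each role. Other genes given by library were chosen after their values were seen. The summed test of DDX60 with DDX60L was also chosen after seeing the data.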

Additional observations from a re-analysis of the deposited data

How the results depend on the processing

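In S100A9 against S100A8 the count of genes called was 1 and fell to 0 without the robust option, with limma on log2(FPKM + 1) and on the 6 libraries compared alone. It was also 0 with DDX60 and DDX60L summed, but most of that sum is DDX60, so it does not bear on DDX60L alone. With 1 library left out the count ranged from 0 to 1, and in S100A9 against control likewise from 0 to 1. Other comparisons kept 0 throughout. The median difference stayed below 0, from -0.0767 to -0.0374 with 1 library left out. Small differences turned: EIF2AK2 was 0.0015 with limma and -0.0373 to 0.0208 with 1 library left out, IRF1 -0.0683 to 0.1032, ISG15 -0.0855 to 0.0033 and SAMD9 -0.0865 to 0.0803. The cause was not tested. With the replicate number as a block the count of 1 was still 1, with adjusted p = 0.0055 in edgeR for DDX60L, and all genes called rose from 25 to 69. Same-numbered libraries of different groups correlated in their deviations at -0.074 to 0.151 (median 0.054), and differently numbered ones at -0.158 to 0.095 (median -0.011). Of 12 libraries, 8 correlated best with their own number, and whether same-numbered libraries shared an origin was not tested. The labels name no shared origin, so the block was kept as an alternative. Both ranges of correlation overlapped, with the same-numbered median the higher. Low counts left MX2, IFI27 and XAF1 untested, and intervals were wide for OAS2, TRIM22, USP18, CMPK2 and IFI6.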
